A study of Mus musculus with 6 samples.

Results

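Immediate early genes are switched on directly by signalling pathways already present in a cell, with no need for new protein to be made first. MAP kinases and the cAMP pathway act on transcription factors that wait at their promoters, and the transcripts made are short-lived. Many of the products are themselves transcription factors, and others end the signal that induced them. In liver the group is best known from regeneration, injury and hormone signalling. The set described here holds 10 of the 23631 genes in the deposited gene table, chosen by name: Fos, Fosb, Jun, Junb, Jund, Egr1, Myc, Ier2, Ier3 and Dusp1. Each name matched 1 Ensembl gene, and all 10 are protein coding.

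RNA was taken from livers of male C57BL/6J mice, an inbred laboratory strain, and sequenced as 6 libraries. A group of 3 libraries is labelled re-fed and a group of 3 is labelled as fasted for 48 h. The sample labels say re-fed while the treatment protocol says that the mice ate normally, and these labels do not settle whether a fast came before the feeding. They are called refed here. Age is not given, and the labels do not say that the samples of a group came from separate animals, so p-values measure only how far these samples differ, and part of that may be technical. In bulk tissue, fewer cells of a type and less RNA per cell cannot be told apart.

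Total counts ranged from 29574528 to 36026753 per library, and 18154 to 18699 genes had at least 1 count. The main hepatocyte product Alb stood between 66733 and 87289 CPM (counts scaled to a common library size of 1e6 with TMM factors) in the 6 libraries. The third fasted library stood apart from the other fasted libraries on the second principal component, at 48.7 against -26.0 and -19.8. It also held neutrophil transcripts: the summed level of 9 neutrophil and lymphocyte markers was 173 CPM there, against 1.32 and 2.95 CPM in the other fasted libraries and 0.937 to 1.20 CPM in the refed libraries. The neutrophil granule markers Ngp and Ltf had 36.3 and 15.1 CPM in that library and no count in the other fasted libraries. Each count of the early genes is therefore given with and without it.

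The 10 early genes were higher in fasted than in refed livers, with no overlap between the groups on the CPM scale, although in Fosb that separation depends on the scaling. Of the 9 that had enough counts to be tested, 9 rose and 0 fell (edgeR quasi-likelihood test, adjusted p under 0.05 over 13248 genes). Fos passed the count filter mainly through its fasted libraries, so its call adds nothing to the counts of members in this paragraph. Fosb was too low for the test. Among all genes tested, 29.2% were called higher in fasted livers and 30.2% lower, 59.4% were called in either direction, and 32.8% had all fasted libraries above all refed ones. The groups thus differed across a large part of the transcriptome, with 3867 genes higher, 3999 lower and 5382 that did not pass, and the direction of the early genes is read against that. Scaling by library totals alone gave 2873 higher and 5074 lower genes and shifted the median of all tested genes to -0.21 on the log2 scale, and the same 9 early genes were called higher under it. The sizes were large for this comparison: the 9 genes had a median log2 fold change of 2.20, and the median of all tested genes was -0.00. A log2 fold change of at least 2 was found in 7 of the 9 (77.8%), Fos among them, and in 597 of all tested genes (4.51%). Some of the 7 lie near that cutoff. Jund fell under it without the third fasted library, to 1.66. Dusp1 and Myc fell under it in other settings, to 1.82 and 1.94 with library totals. Without the third fasted library, Fosb passed the count filter as well and 10 of 10 were called higher, against 31.6% of all genes tested there. Fosb passed the filter only through its fasted libraries, so its call adds nothing to that count.

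**Figure D1:**
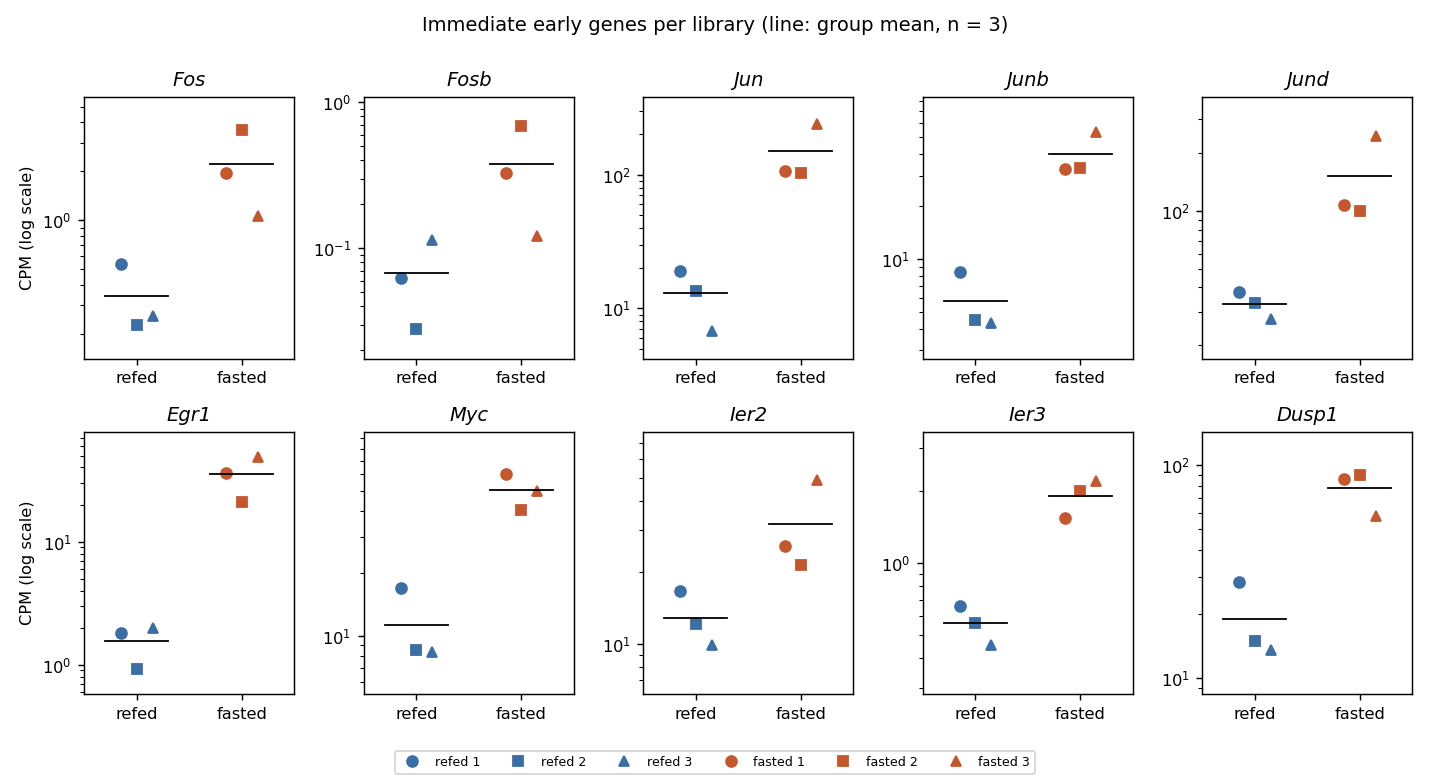
Level of the 10 immediate early genes in each library, in CPM on a log scale with its own range in each panel. Points are single libraries, blue for refed and orange for fasted, and the line is the mean of 3. In every panel the fasted points lie above the refed points, by the least in Fosb, whose lowest fasted library stands at 0.122 CPM and highest refed library at 0.114 CPM.

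The Fos and Jun proteins pair through leucine zippers into AP-1, the dimeric factor that gave immediate early genes their best known example. Fos (ENSMUSG00000021250, chromosome 12, 86814840 to 86818223 in mm9) encodes the founding Fos partner. It had 0.536, 0.225 and 0.256 CPM in refed livers 1 to 3 and 1.95, 3.60 and 1.07 CPM in fasted livers 1 to 3. The lowest fasted library was 1.99 times the highest refed library. The mean rose from 0.339 ± 0.171 to 2.21 ± 1.29 CPM (SD, n = 3 each), a log2 fold change of 2.70 (SE 0.54, adjusted p by edgeR = 0.00313). These are low levels: refed libraries 2 and 3 held 8 and 9 counts, and the gene passed the count filter mainly through its fasted libraries. The change was 2.17 without fasted library 2, which was the highest, and 3.04 without fasted library 3.

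Fosb (ENSMUSG00000003545, chromosome 7, 19888070 to 19895394 in mm9), a second Fos-type partner, was barely detected. Its counts were 2, 1 and 4 in refed livers and 11, 22 and 4 in fasted livers. On the CPM scale these were 0.0631, 0.0281 and 0.114 against 0.330, 0.683 and 0.122. Fasted libraries 1 and 2 stood clear of the refed range, while fasted library 3 held the same 4 counts as refed library 3. By library totals alone these libraries stood at 0.117 and 0.123 CPM, in the opposite order. The summed counts, 7 against 37, give a fasted to refed ratio of 5.50 with an exact 95% counting interval of 2.42 to 14.6. Without the count filter, edgeR gave a log2 fold change of 2.38 (adjusted p = 0.0104), and DESeq2 gave 2.47 (adjusted p = 0.0271). When 1 library was left out the gene was testable in 4 cases. It passed without refed library 3 or fasted library 3 and did not pass without refed library 1 (adjusted p = 0.0688) or 2 (adjusted p = 0.0842).

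Jun (ENSMUSG00000052684, chromosome 4, 94715725 to 94718913 in mm9) encodes the Jun partner that can also pair with itself. Its level was 19.0, 13.5 and 6.76 CPM in refed livers and 105.7, 103.0 and 239 CPM in fasted livers. The 3 fasted libraries were all at least 5.41 times the highest refed library. The log2 fold change was 3.51 (SE 0.49, adjusted p by edgeR = 0.000676), from 13.1 ± 6.14 to 149 ± 78.0 CPM. Fasted library 3 was 2.29 times the mean of the other fasted libraries, and without it the log2 fold change was 3.00. The 689 bases at the higher-coordinate end of Jun overlap the antisense gene BC042782, which held 5 to 19 counts in the 6 libraries (log2 fold change -0.12, edgeR adjusted p = 0.864). The sources used here do not say whether counting used strand, so reads in that stretch cannot be assigned to either gene with certainty.

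Junb (ENSMUSG00000052837, chromosome 8, 87500811 to 87502617 in mm9), known as a weaker activator that can restrain Jun, had 8.39, 4.50 and 4.32 CPM in refed and 32.7, 33.2 and 53.1 CPM in fasted livers. Fasted libraries 1 and 2 were nearly equal, and the lowest of the 3 was 3.90 times the highest refed library. The log2 fold change was 2.79 (SE 0.32, adjusted p by edgeR = 0.000254), from 5.74 ± 2.30 to 39.7 ± 11.6 CPM. Jund (ENSMUSG00000071076, chromosome 8, 73221638 to 73224515 in mm9) is the Jun protein usually described as present in resting cells and little induced by growth signals. It had 37.9, 33.3 and 27.3 CPM in refed livers and 107.5, 100.2 and 246 CPM in fasted livers. No fasted library came below 2.64 times the highest refed value. The log2 fold change was 2.20 (SE 0.36, adjusted p by edgeR = 0.0014), and 1.66 without fasted library 3, which was 2.37 times the mean of the other fasted libraries.

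Levels of different genes were compared on the authors' normalized signal divided by their deposited gene length in kb. On that scale the Jun family outweighed Fos and Fosb together in every library. The summed signal of Jun, Junb and Jund was 998, 779 and 591 per kb in refed and 3729, 3569 and 7981 per kb in fasted livers. The summed signal of Fos and Fosb was 23.0, 9.67 and 11.7 per kb in refed and 85.3, 157 and 45.5 per kb in fasted livers. Relative to the Jun family, Fos and Fosb together came to 2.31%, 1.24% and 1.98% in refed livers. In fasted livers they came to 2.29%, 4.41% and 0.570%, and the ranges overlap (exact two-sided permutation p = 0.8). The Fos-type gene Fosl2 was not part of this sum, so these percentages do not describe the whole Fos family. Its mean was 5.65 CPM in refed and 26.2 CPM in fasted livers, above the 0.339 and 2.21 CPM of Fos. The deposited length of Fos, 0.8145 kb, is short beside its 2.108 kb transcript in the GENCODE M21 annotation, so the per kb level of Fos depends on that length.

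Within the Jun family the make-up differed between the groups. Jund contributed 58.3%, 65.6% and 70.8% of the family's per kb signal in refed livers and 44.6%, 43.2% and 47.1% in fasted livers. Jun contributed 25.8%, 23.5% and 15.4% in refed and 38.7%, 39.2% and 40.4% in fasted livers. For both genes the groups do not overlap, and the fasted libraries lie close together although fasted library 3 held more of each transcript. The exact two-sided permutation p was 0.1 for Jun and for Jund, the smallest that 3 against 3 libraries can give, and 0.2 after Benjamini-Hochberg adjustment over 6 such ratios. The ratio of Jun to Jund went from 0.339 ± 0.113 to 0.877 ± 0.0253 (SD, n = 3 each, exact permutation p = 0.1, adjusted 0.2). Junb made up 13.5% ± 2.50 of the family in refed and 15.6% ± 2.72 in fasted livers, with overlapping ranges (exact permutation p = 0.4, adjusted 0.48). The shares depend on the lengths used: with GENCODE M21 transcript lengths the share of Jun was 14.6% ± 4.03 in refed and 29.2% ± 0.591 in fasted livers.

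**Figure D2:**
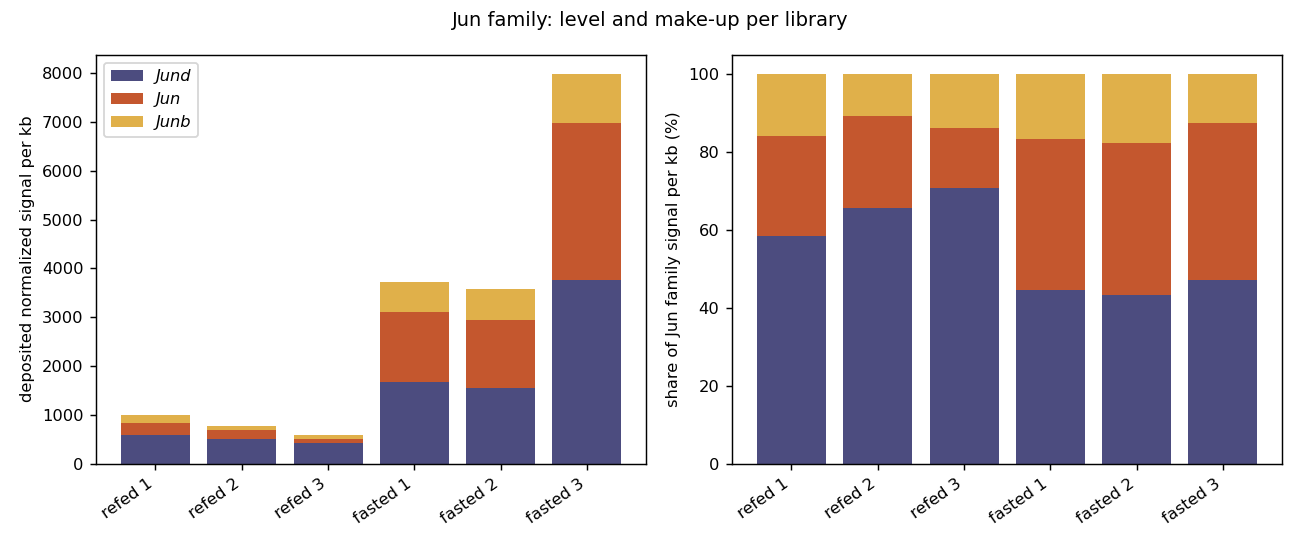
Jun, Junb and Jund in each library as the authors' normalized signal per kb of deposited gene length (left, stacked) and as the percentage of the sum of the 3 (right). The Jund share is 58.3% to 70.8% in refed and 43.2% to 47.1% in fasted libraries, while the family sum goes from at most 998 per kb to at least 3569 per kb.

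Egr1 (ENSMUSG00000038418, chromosome 18, 35019477 to 35024638 in mm9) encodes a zinc finger factor that is a standard readout of ERK signalling. It showed the largest change of the 9 tested members. Its level was 1.80, 0.929 and 1.99 CPM in refed livers and 35.9, 21.1 and 48.5 CPM in fasted livers. The lowest fasted library was 10.6 times the highest refed library, the widest gap among the 10 genes. The mean went from 1.57 ± 0.565 to 35.1 ± 13.7 CPM, 22.4-fold, with a log2 fold change of 4.48 (SE 0.40, adjusted p by edgeR = 8.58e-05). It ranked 60 from the top by log2 fold change among the 13248 tested genes. Jun ranked 132, Junb 267 and Fos 288, while Ier2 at the other end ranked 1329.

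Myc (ENSMUSG00000022346, chromosome 15, 61816946 to 61821929 in mm9) encodes the growth-promoting factor that binds DNA with Max. It had 17.0, 8.53 and 8.41 CPM in refed livers and 60.1, 40.6 and 50.0 CPM in fasted livers. The lowest fasted library was 2.39 times the highest refed library, and fasted library 3 lay between the other fasted libraries. The level went from 11.3 ± 4.93 to 50.2 ± 9.71 CPM, a log2 fold change of 2.15 (SE 0.30, adjusted p by edgeR = 0.000656). Leaving out fasted library 3 gave 2.16.

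Ier2 (ENSMUSG00000053560, chromosome 8, 87185230 to 87186751 in mm9) encodes a small nuclear protein. It had 16.7, 12.1 and 9.82 CPM in refed livers and 25.8, 21.4 and 48.7 CPM in fasted livers. The lowest fasted library was 1.28 times the highest refed library, the narrowest gap among the tested members. It had the smallest change of them, a log2 fold change of 1.32 (SE 0.33, adjusted p by edgeR = 0.0112), and 0.88 without fasted library 3. It was the member that lost its call under an alternative, with an adjusted p of 0.0718 in edgeR when no count filter was applied. Ier3 (ENSMUSG00000003541, chromosome 17, 35958629 to 35959868 in mm9), a stress-inducible gene that influences cell survival, had 0.662, 0.563 and 0.454 CPM in refed and 1.53, 1.99 and 2.19 CPM in fasted livers. All fasted values were at least 2.31 times the highest refed value. The log2 fold change was 1.76 (SE 0.28, adjusted p by edgeR = 0.000851).

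Dusp1 (ENSMUSG00000024190, chromosome 17, 26642535 to 26645464 in mm9) encodes a nuclear phosphatase that switches off MAP kinases and is induced by the signals it ends. Its level was 28.4, 15.0 and 13.5 CPM in refed livers and 86.4, 89.7 and 58.1 CPM in fasted livers. The fasted libraries were all above the refed ones, and fasted library 3 was the lowest of them. The mean went from 19.0 ± 8.24 to 78.1 ± 17.4 CPM, a log2 fold change of 2.04 (SE 0.31, adjusted p by edgeR = 0.00104).

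Promoters are shown for 5 members because they hold the letters of a cAMP-type element, which is bound by CREB and ATF factors and, in the Jun promoter, by Jun and ATF dimers. RefSeq promoter sequences of build GRCm38.p6 were found for 7 of the 10 genes: Fos, Fosb, Jun, Junb, Jund, Ier3 and Dusp1. The 250 bases before the annotated start were searched on both strands. The letters TGACG occurred in 4 of the 7 (Fos, Fosb, Junb, Dusp1) and in 17.8% of 32851 promoters of the same length. The full palindrome TGACGTCA, which contains TGACG on each strand, occurred in Dusp1 and in 1.55% of all promoters. The variant TGACATCA occurred in Jun and in 2.93% of all promoters. The 200 bases before the start follow, 5′ to 3′ on the strand of the gene, with the bases of these elements in capitals.
Fos, chr12:85473690-85473889, plus strand: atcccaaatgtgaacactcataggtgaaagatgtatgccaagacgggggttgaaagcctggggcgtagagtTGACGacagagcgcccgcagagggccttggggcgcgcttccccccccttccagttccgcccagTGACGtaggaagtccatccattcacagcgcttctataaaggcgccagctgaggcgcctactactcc
Fosb, chr7:19310046-19310245, minus strand: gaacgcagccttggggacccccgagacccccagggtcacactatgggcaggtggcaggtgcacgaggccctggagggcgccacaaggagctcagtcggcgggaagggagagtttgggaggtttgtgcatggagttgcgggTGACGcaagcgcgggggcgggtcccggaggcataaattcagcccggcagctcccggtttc
Jun, chr4:95052223-95052422, minus strand: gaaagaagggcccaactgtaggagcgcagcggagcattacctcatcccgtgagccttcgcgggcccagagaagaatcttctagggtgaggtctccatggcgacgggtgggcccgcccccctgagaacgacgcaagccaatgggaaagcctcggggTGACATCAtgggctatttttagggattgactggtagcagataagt
Junb, chr8:84978749-84978948, minus strand: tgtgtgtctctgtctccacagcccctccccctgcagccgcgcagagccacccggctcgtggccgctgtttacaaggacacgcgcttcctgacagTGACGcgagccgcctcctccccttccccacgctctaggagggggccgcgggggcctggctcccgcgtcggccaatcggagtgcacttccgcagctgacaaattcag
Dusp1, chr17:26508473-26508672, minus strand: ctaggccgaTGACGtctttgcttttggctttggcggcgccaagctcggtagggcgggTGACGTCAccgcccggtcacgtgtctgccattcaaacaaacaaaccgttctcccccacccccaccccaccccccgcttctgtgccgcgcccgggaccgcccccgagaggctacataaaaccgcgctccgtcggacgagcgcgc

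Counted backwards from the start site, TGACG lay at -129 to -125 and at -66 to -62 in Fos, at -60 to -56 in Fosb and at -106 to -102 in Junb. In Dusp1 it lay at -191 to -187 and within the palindrome at -143 to -136. The Jun element lay at -45 to -38. Other promoter letters were searched in the same windows. The GC box GGGCGG was found in 5 of the 7 (Fos, Fosb, Jun, Ier3, Dusp1) and in 32.7% of all promoters, and TATAA in 2 (Fos, Ier3) and in 22.8%. The CArG box, by which serum response factor is known to bind early genes, was found in 0 of the 7 windows and in 1.47% of all, and the AP-1 element TGANTCA in 0 and in 6.75%. Sites beyond the 250 bases searched, or in Egr1, Myc and Ier2, were not covered. The search therefore cannot say whether the early genes lack such elements. The 7 windows had a median GC content of 61.2% and a median of 15 CG steps, against 52.4% and 6 over all promoters. The shares over all promoters were not matched for base content, and TGACG and the GC box each hold a CG step. The counts for these letters therefore cannot be read as an excess in the early genes. All hits are matches of letters, not measured binding.

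As gene models the members are compact. Their median span in mm9 was 3059.5 bases, against 21850.5 bases for all tested genes, while the median deposited gene length was 1.997 kb against 1.75 kb. In the GENCODE M21 annotation, Jun, Junb, Jund and Ier2 have 1 exon and Fos, Fosb and Dusp1 have 4. Ier2 and Junb lie 314 kb apart on chromosome 8. Of the 20 tested genes that flank the members, 6 were called higher, 4 lower and 10 did not pass, with a median log2 fold change of 0.30. The share called higher, 30%, is near the 29.2% of all tested genes. Prdx2, which lies 2.08 kb from Junb, had a log2 fold change of -0.09 (edgeR adjusted p = 0.532). Flot1, which lies 0.307 kb from Ier3, had one of 0.39 (edgeR adjusted p = 0.0826).

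The members fell into patterns across the fasted libraries that differed from gene to gene. Fasted library 3 was the highest of all libraries for Egr1, Ier2, Ier3, Jun, Junb and Jund. For Fos, Fosb and Dusp1 the highest was fasted library 2 and the lowest of the fasted libraries was number 3, and for Myc the highest was fasted library 1. Set against the mean of fasted libraries 1 and 2, the CPM in fasted library 3 was 2.37 times for Jund, 2.06 times for Ier2 and 1.70 times for Egr1. The same ratio was 0.993 for Myc, 0.660 for Dusp1, 0.384 for Fos and 0.240 for Fosb. Of all tested genes, 40.5% were highest and 38.9% lowest of the fasted libraries in number 3. The neutrophil markers of fasted library 3 move with the first of these patterns, and their part in it was not tested. Among the refed libraries, number 1 was the highest for 8 of the 10 members, all but Egr1 and Fosb, and for 35.2% of tested genes. It held 2.23 times the mean CPM of refed libraries 2 and 3 for Fos, 2.01 times for Myc and 2.00 times for Dusp1.

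**Figure D3:**
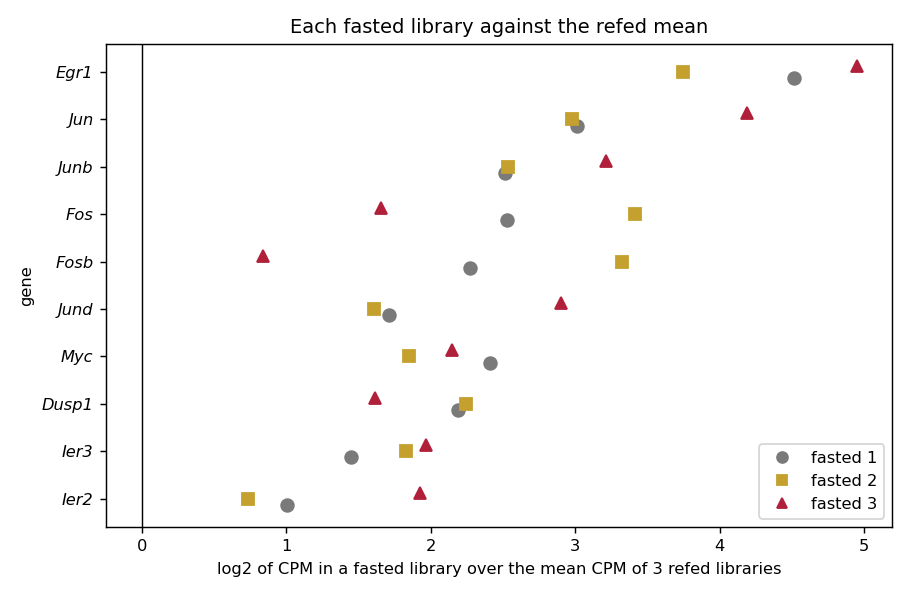
Each fasted library against the mean of the 3 refed libraries, as the log2 ratio of CPM, for the 10 members; each point is 1 library. All points lie above 0, from 0.73 (Ier2, fasted library 2) to 4.95 (Egr1, fasted library 3), and fasted library 3 lies at the upper end for Jun and Jund and at the lower end for Fos and Fosb.

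The order of the levels per kb of deposited length differed between the groups. In refed livers the order of the mean normalized signal per kb ran from Jund (504 ± 82.0) through Dusp1 (325 ± 142), Ier2 (288 ± 78.8), Myc (192 ± 84.1), Jun (177 ± 83.4) and Junb (108 ± 43.6) to a lower group. Neighbours among these 6 overlapped in their ranges. The lower group was Ier3 (16.9 ± 3.16), Egr1 (14.2 ± 5.11) and Fos (14.2 ± 7.20), which also overlapped with their neighbours, and Fosb (0.619 ± 0.389) was last and separate. In fasted livers Jund (2322 ± 1245) and Jun (2022 ± 1043) led with overlapping ranges, followed by Dusp1 (1341 ± 304), Myc (857 ± 169), Junb (749 ± 215) and Ier2 (717 ± 324), each overlapping with the next. Egr1 (319 ± 123) stood alone between these and Fos (92.6 ± 54.1), which overlapped with Ier3 (57.5 ± 9.92). Fosb (3.45 ± 2.59) was again last. On the same scale the refed mean of Egr1 was above that of 12.3% of tested genes and its fasted mean above that of 58.6%. Jun went from 47.2% to 87.5% by the same measure, and Jund from 67.5% to 88.9%.

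Other early genes showed how far the rise extended beyond the 10. Of 14 other early transcription factors, 8 were tested: 7 rose, 0 fell and 1 did not pass, with a median log2 fold change of 2.49. Over all tested genes, 29.2% were called higher and 30.2% lower. The same 7 to 0 was counted without fasted library 3, among 9 tested, where 31.6% of all tested genes were called higher. Atf3, a stress-induced partner of the Jun proteins, had 1.55, 2.22 and 1.42 CPM in refed and 58.8, 45.1 and 56.7 CPM in fasted livers, which lie close together. Its log2 fold change was 4.95 (SE 0.21, adjusted p by edgeR = 3.68e-06). The third Fos-type gene with reads, Fosl2, had 8.58, 5.01 and 3.35 CPM in refed and 24.6, 22.0 and 32.1 CPM in fasted livers (log2 fold change 2.22, edgeR adjusted p = 0.000914). Klf10, a factor induced by TGF-beta, was uneven across the fasted libraries, at 117, 81.6 and 13.1 CPM against 5.68, 9.03 and 5.99 CPM in refed livers (log2 fold change 3.35, edgeR adjusted p = 0.00734). Klf6, Klf4, Nr4a1 and Klf2 rose by log2 fold changes of 2.76, 2.83, 2.08 and 1.38, and Maff had 0.95 (edgeR adjusted p = 0.0716). Others were absent or nearly so: Fosl1, of the Fos family, and Egr3, a relative of Egr1, had no count in any library, and Egr2 had 1 and 2 counts in fasted libraries 1 and 2 and 0 elsewhere.

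Of 20 other early genes that encode no transcription factor, 17 were tested. Of these 10 rose, 0 fell and 7 did not pass, with a median log2 fold change of 1.07. Over all tested genes, 29.2% were called higher and 30.2% lower. Without fasted library 3, 12 of 18 rose, against 31.6% of all genes tested there. Dusp5, the gene added there, had 8, 6 and 6 counts in refed libraries and passed the filter only through fasted ones. Gadd45b, a stress sensor that acts on MAP kinase pathways, went from 0.946, 1.97 and 1.33 CPM in refed to 70.6, 89.7 and 49.0 CPM in fasted livers (5.61 on the log2 scale, SE 0.33, edgeR adjusted p = 1.66e-05). The antiproliferative gene Btg2 went from 8.61, 6.81 and 5.85 CPM to 107.5, 79.3 and 255 CPM (log2 fold change 4.38, edgeR adjusted p = 0.000217). Sgk1, a kinase gene induced by glucocorticoids and serum, rose by 2.35 on the log2 scale. Members of the list that did not pass included Plk3, at 171, 61.4 and 33.4 CPM in refed and 124, 112 and 97.4 CPM in fasted livers, and the survival gene Mcl1, at 99.5, 91.7 and 85.5 CPM in refed and 88.4, 79.1 and 208 CPM in fasted livers.

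**Figure D4:**
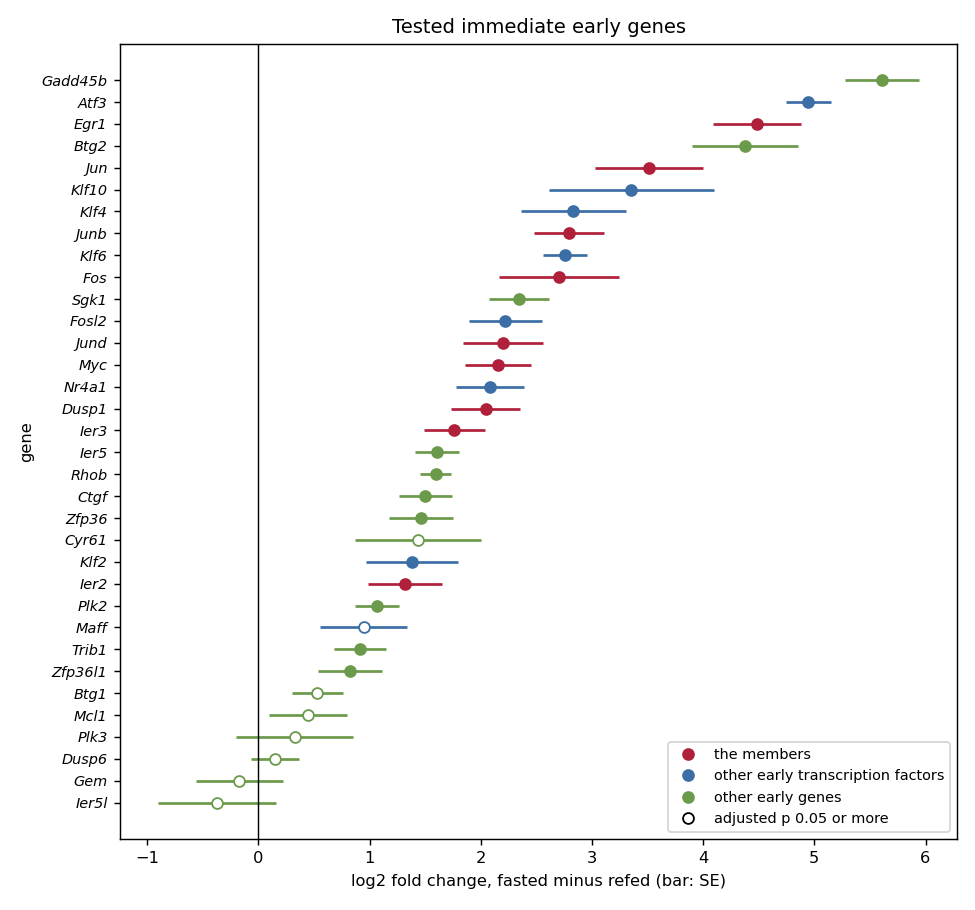
Log2 fold change (fasted minus refed, bar: SE) of the 9 tested members (red), 8 other early transcription factors (blue) and 17 other early genes (green), sorted by size. Filled points passed an edgeR adjusted p of 0.05: 9 of 9, 7 of 8 and 10 of 17, all to the right of 0.

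Of 7 tested bZIP genes whose proteins pair with Fos and Jun or compete with them, 2 rose, 2 fell and 3 did not pass, with a median log2 fold change of -0.04. These counts are close to the shares over all tested genes, 29.2% higher and 30.2% lower. Mafk, a small Maf protein, had 9.65, 7.20 and 5.11 CPM in refed and 34.6, 32.4 and 50.7 CPM in fasted livers (log2 fold change 2.42, SE 0.27, edgeR adjusted p = 0.000211). Jdp2, which represses AP-1 and is the next tested gene above Fos on chromosome 12, rose by 1.77 on the log2 scale (edgeR adjusted p = 0.0064). Atf7, a relative of Atf2, was among those called lower (log2 fold change -0.70, edgeR adjusted p = 0.0342). The 2 lower calls were 1 without refed library 1 or 2 and 0 without refed library 3, fasted library 1 or fasted library 3.

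Upstream of the early genes, serum response factor and its cofactors went in different directions. Srf rose, with a log2 fold change of 0.65 (edgeR adjusted p = 0.00336), as did its partner Elk4, from 23.3, 19.4 and 20.8 CPM to 60.7, 49.5 and 66.7 CPM (1.48, edgeR adjusted p = 7.07e-05). Elk3, known as a repressor until phosphorylated, fell from 2.81, 3.86 and 5.40 CPM to 1.38, 1.89 and 1.61 CPM (-1.30, edgeR adjusted p = 0.00392). The actin-regulated cofactor genes Mkl1 and Mkl2 fell too, and Elk1 did not pass, so 2 of 6 rose and 3 fell, against 29.2% and 30.2% of all tested genes. Of 23 tested genes of the MAP kinase cascades, 6 rose, 7 fell and 10 did not pass, which is near the same shares over all tested genes, and their median was 0.04. The ERK gene Mapk3 was among those that did not pass (edgeR adjusted p = 0.0619). Mapkapk2, the kinase below p38, had 51.2, 50.0 and 48.4 CPM in refed and 370, 268 and 366 CPM in fasted livers (2.75, edgeR adjusted p = 9.08e-06). The adaptor Grb2 had 37.1, 36.5 and 35.9 CPM in refed and 25.7, 28.5 and 28.0 CPM in fasted livers (-0.41, edgeR adjusted p = 0.00642). Of the 7 lower calls of this list, 4 were counted without fasted library 1. Transcript levels do not measure the activity of these kinases.

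Phosphatases of the same family as Dusp1 were tested for 7 of 9 genes: Dusp4, Dusp8, Dusp9 and Dusp10 rose, 0 fell and 3 did not pass, with a median log2 fold change of 1.14. Over all tested genes, 29.2% were called higher and 30.2% lower. Dusp9 was low throughout, with 2, 1 and 2 counts in refed and 22, 22 and 18 counts in fasted livers (3.59, SE 0.43, edgeR adjusted p = 0.000211). It passed the count filter only through its fasted libraries, so its call adds nothing to the count of the list, which is 3 of 6 without it. Its summed counts give a fasted to refed ratio of 12.9, with an exact 95% counting interval of 5.25 to 41.2. Dusp8 and Dusp4 had log2 fold changes of 3.58 and 2.07 (edgeR adjusted p = 0.00137 and 0.00551). Dusp6, which acts on ERK, had 18.3, 19.8 and 15.2 CPM in refed and 16.6, 15.9 and 26.5 CPM in fasted livers and did not pass (edgeR adjusted p = 0.574). Without fasted library 3, 5 of 8 rose and 1 fell, while 31.6% of all genes tested there were called higher. That count again includes Dusp9. Dusp5, the gene added there, had 8, 6 and 6 counts in refed libraries, and it too passed the filter only through fasted ones. Early gene transcripts are often destroyed through AU-rich elements, and of 8 genes for proteins that bind these elements 4 rose, 2 fell and 2 did not pass. The shares over all tested genes were 29.2% higher and 30.2% lower. Zfp36, which speeds decay and is itself an early gene, rose by 1.46 and its relatives Zfp36l2 and Zfp36l1 by 2.25 and 0.82 on the log2 scale. Zfp36l1 lay near the threshold (edgeR adjusted p = 0.0386). It had 49.7, 41.3 and 32.4 CPM in refed and 56.9, 54.3 and 107 CPM in fasted livers 1 to 3. Hnrnpd had 31.9, 28.3 and 29.6 CPM in refed and 89.5, 79.5 and 67.9 CPM in fasted livers (1.40, edgeR adjusted p = 6.08e-05). Tia1, a translational repressor, had 7.06, 5.94 and 6.96 CPM in refed and 3.96, 3.32 and 4.38 CPM in fasted livers (-0.77, edgeR adjusted p = 0.00438). The 2 lower calls of that list were 1 without refed library 1, refed library 2 or fasted library 2. Its 4 higher calls were 3 without refed library 2 or 3 and 5 without fasted library 2. They were also 3 with library totals, without the count filter, with glmTreat and with the replicate block.

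In the network around Myc, 4 of 12 genes were higher, 3 lower and 5 did not pass (median log2 fold change 0.20), again near the shares over all tested genes. Mxd3 passed the count filter mainly through its fasted libraries and Mycn only through its refed ones, so their calls add nothing to these counts. With a mean of at least 5 CPM, which leaves both untested, 3 of 10 were higher and 2 lower. In that setting 32.9% of all tested genes were called higher. The obligate partner of Myc, Max, had 15.5, 17.1 and 13.9 CPM in refed and 17.1, 17.4 and 17.3 CPM in fasted livers and did not pass (edgeR adjusted p = 0.281). The paralog Mycn moved against Myc, from 44, 37 and 49 counts in refed to 1, 1 and 2 counts in fasted livers (log2 fold change -4.85, edgeR adjusted p = 4.61e-05). The fasted libraries of Mycn lie under the floor of 3 counts, and the summed counts, 130 against 4, give a ratio of fasted to refed of 0.032 with an exact 95% counting interval of 0.0086 to 0.084. The third paralog, Mycl1, rose by 1.40 on the log2 scale (edgeR adjusted p = 0.00124). Mlxip, which pairs with Mlx and responds to glucose metabolites, had 5.71, 5.40 and 4.80 CPM in refed and 18.5, 17.4 and 22.5 CPM in fasted livers (1.88, edgeR adjusted p = 3.42e-05). Its relative Mlxipl, the carbohydrate response factor of the liver, and Mlx fell, with log2 fold changes of -1.49 and -1.17 (edgeR adjusted p = 0.000449 and 0.000306).

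Genes whose pattern over the 6 libraries was most like that of a member were sought among 11219 genes of at least 1 CPM on average, by Pearson's r of log2 CPM with 0.1 added. The values describe 6 libraries that fall into 2 groups, so any gene that differs between the groups scores high. Closest to Fos were Eri3 (r = 0.996), Klhl26 (r = 0.992) and Coro1c (r = 0.991). Of these Klhl26 was called higher in fasted livers (log2 fold change 1.25, edgeR adjusted p = 0.00125), while Eri3 had 0.20 (edgeR adjusted p = 0.141). Coro1c had 0.28 (edgeR adjusted p = 0.0709), and 0.34 without fasted library 3 (edgeR adjusted p = 0.0294). Closest to Myc were Apbb3 (r = 0.999), Kin (r = 0.997) and Usp11 (r = 0.997), all called higher, with log2 fold changes of 1.28, 0.83 and 1.37.

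Markers of the cell types in the tissue were counted in the same fit, where 29.2% of all tested genes were called higher and 30.2% lower. Of 8 tested hepatocyte markers 5 rose, 1 fell and 2 did not pass, and their summed level was 86545 to 103221 CPM in refed and 120436 to 139690 CPM in fasted livers. Those that rose include Tat, Cps1 and Arg1, with log2 fold changes of 2.38, 2.27 and 2.06. Alb, the largest part of the sum, did not pass (edgeR adjusted p = 0.795). The count and the sum therefore do not measure the share of hepatocytes. Of 9 Kupffer cell and macrophage markers 0 rose, 1 fell (Emr1) and 8 did not pass, and their summed level was 71.7 to 90.3 CPM in refed livers and 22.3, 64.8 and 102 CPM in fasted livers 1 to 3. Of 8 sinusoidal endothelial markers 2 rose, 0 fell and 6 did not pass, and their summed level was 65.4 to 123 CPM in refed and 77.4 to 141 CPM in fasted livers. Of 7 stellate cell markers 1 rose, 1 fell and 5 did not pass, while their summed level was 112 to 129 CPM in refed and 201 to 289 CPM in fasted livers. That sum is mostly Dcn, the marker that rose, and without Dcn it was 48.8 to 59.0 CPM in refed and 44.7 to 66.6 CPM in fasted livers. Of 5 bile duct markers 2 rose, 1 fell and 2 did not pass, at 26.0 to 44.1 CPM in refed and 15.8 to 27.4 CPM in fasted livers. That sum is mostly Spp1, the marker that fell, and without Spp1 it was 4.40 to 5.61 CPM in refed and 6.33 to 8.67 CPM in fasted livers, where Epcam and Sox9 rose. The part of these markers in the results for the early genes was not tested.

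The authors' deposited table also gives a comparison for each of the 10 genes. In the authors' deposited table the log2 fold change was positive for all 10, from 1.22 for Ier2 to 4.10 for Egr1. Fosb had 1.71 there, with an adjusted p of 0.0161 in the authors' deposited table.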

How the data were processed

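RNA sequencing of mouse liver was taken as deposited. The table deposited by the authors holds, per the file headers, a raw count per gene and library, a normalized signal, and that signal per kb of gene length, together with their log2 fold change and its p-value and adjusted p-value. The files used here do not state how the signal was made, but each library's count over its signal is a single constant. Tools in the submitters' processing notes are DESeq2 1.0.19, HTSeq 0.5.4p3, TopHat2 2.0.10 and Bowtie2 2.1.0, with the build mm9. Their roles and the strand handling are not stated there.

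The 23631 genes were tested in R 4.3.3 with edgeR 4.0.16. filterByExpr with a minimum count of 10 kept 13248 genes and removed 10383. Library sizes were scaled by TMM, and a robust quasi-likelihood fit had the group as its only term. P-values were adjusted by Benjamini-Hochberg over all genes tested, with 0.05 as the threshold for a call. A positive log2 fold change means higher in fasted livers. Its SE was taken as its size over the square root of the F statistic. CPM uses TMM-scaled library sizes, and errors are SDs over 3 libraries. The floor of 3 counts is 0.0833 to 0.101 CPM by library totals and covers counting error only.

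The 10 members, the 14 lists of other genes and the tests were chosen with earlier results of these data known. Besides the members, the rule named the called gene with the lowest p in each direction of each list that is not a cell type list, and the 3 genes most like Fos and Myc; other genes named were chosen after their values were seen. Results of some list genes are not reported here. Some genes stand in more than 1 list (Zfp36, Zfp36l1, Dusp2, Dusp5 and Dusp6). Atf7 has 2 entries, of which the one with more counts was used, and Egr4 and Hras were not analysed here. No pair of libraries agreed within sampling noise. Alternatives were DESeq2 1.42.0, limma-voom (limma 3.58.1), other scaling and filters, glmTreat against a log2 change of 0.5, a replicate block and leaving out each library. Promoters came from RefSeq (GRCm38.p6) and were matched by symbol, never by coordinates, since the deposited coordinates are mm9.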

Additional observations from a re-analysis of the deposited data

How the results depend on the processing

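The members called higher numbered 9 and the members called lower 0. The 9 include Fos, which passed the count filter mainly through its fasted libraries. Across DESeq2, limma-voom, other scaling, filters, glmTreat, the replicate block and each library left out, the first count ranged from 7 to 10 and the second was 0. It was 10 with DESeq2, without refed library 3 and without fasted library 3, through Fosb, and 7 with a mean of at least 5 CPM, which left Fos and Ier3 untested. With a library left out, Fosb passed the count filter only through fasted libraries, so its call adds nothing there. Without the count filter the members called higher numbered 9, with Fosb in place of Ier2. The number of tested genes called was 7866, was 4929 with glmTreat, where only changes beyond a log2 change of 0.5 count, and ranged from 6562 to 8712 with a library left out. A replicate block called 7340 genes and the same 9 members, although the numbers did not pair the libraries: deviations of same-numbered libraries from their group means correlated at -0.016, -0.062 and -0.081, and no library correlated best with its own number. The block took the lower calls among bZIP partners, and those among binders of AU-rich elements, from 2 to 1. The log2 fold change of Eri3 was -0.0189 with library totals. No tested member's fold moved by more than 1.45 times when a library was left out. With a mean of at least 5 CPM, fewer genes were tested: 4 of 5 other early transcription factors, 1 of 3 MAP kinase phosphatases and 1 of 5 bZIP partners rose, and 1 bZIP partner fell. With glmTreat, 0 genes of the MAP kinase cascades, 0 bZIP partners and 0 binders of AU-rich elements were called lower, SRF and its cofactors had 1 higher and 1 lower call, and Grb2 and Tia1 lost their calls. Low counts limit Fos, Fosb, Ier3 and Dusp9, and with 3 libraries a group, exact tests of ratios cannot go below 0.1.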
